A study of Oryza sativa with 6 samples.

Results

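Rice roots taken 6 h after a yeast was given were compared with roots taken at 0 h. The comparison uses 4 of the 6 arrays of the series, chosen by their titles: 2 of roots treated for 6 h and 2 of control roots. All 6 arrays carry RNA of roots of Oryza sativa, cultivar Swarna MTU7029, from plants 3 weeks old. The yeast was Rhodotorula mucilaginosa JGTA-S1, given as a cell suspension to plants that had grown without it, and the control is the same treatment sampled at 0 h. A further 2 arrays, of roots at 24 h, enter the fit as a source of spread between arrays. No roots held for 6 h without the yeast were analysed here, so the yeast and the elapsed time cannot be told apart. Whether the paired arrays of a time are from different plants is not stated, so the p-values reflect only the spread among these arrays, which may be technical.

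Rhodotorula mucilaginosa is a red-pigmented basidiomycete yeast found on plants and in soil. Roots that meet a microbe commonly respond with calcium signals, read by calcium-dependent kinases and by CBL proteins with their CIPK kinases. They also respond with MAP kinase cascades, with changes in jasmonate, auxin, cytokinin and abscisic acid signalling, and with changes in wall, defence and nutrient genes. Clade A of the PP2C protein phosphatases and SnRK2 kinases, called SAPK in rice, form the core of the abscisic acid pathway, while other PP2C clades act elsewhere.

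Signals of 41770 probe sets, on a log2 scale as deposited, were measured on each array. Of these, 15299 carried 1 gene, 436 several and 26035 none in the annotation used here, and the 14662 genes measured include 1946 with a symbol. The arrays had medians of 2.79 to 2.93 but did not share a spread. The interquartile range of signal was 2.48 and 1.87 on the 6 h arrays, against 1.65 and 1.61 on the 0 h arrays. A wider range at 6 h raises bright probe sets and lowers dim ones, so every difference below was also computed after quantile normalization and after cyclic loess, which bring the arrays to a like range. The number of arrays, 2 per time, limits the precision. As bulk samples, fewer cells of a type and less RNA per cell cannot be told apart.

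With limma and a Benjamini-Hochberg adjusted p under 0.05, 641 probe sets (1.53% of those tested) differed at 6 h, 581 higher (1.39%) and 60 lower (0.144%). They cover 307 genes that rose (2.09%) and 15 that fell (0.102%), 2.2% of all genes. Among genes with a symbol 50 rose and 1 fell, 2.62% of those measured. The words rose, fell and changed are used below only of genes past this threshold. The 50 rises lay between 2.91-fold and 8.13-fold, and for each of them both 6 h arrays lay above both 0 h arrays, by a gap of 1.27 to 2.51 on the log2 scale. Their lowest 0 h mean was 2.40, under the median of either 0 h array. All 50 differences remained positive after quantile normalization and after cyclic loess, but only OsCDPK17 and GRXS11 kept an adjusted p under 0.05 after the first, and those and OsCIPK15 and OsNMCP1a after the second. The calls also rest on the other arrays of the fit: without either 6 h array 0 of the 50 passed, and 0 passed without either 24 h array or in a fit to the 4 compared arrays alone. Without the first control array 47 passed and without the second 32.

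Among the 12 largest rises were those of a lipid kinase, 2 calcium-linked kinases and a phosphatase. PIP5K, a phosphatidylinositol phosphate kinase that makes a signalling lipid of the membrane, read 6.32 and 6.09 on the 6 h arrays, against 3.70 and 2.67 at 0 h. The difference was 3.02 ± 0.40 (SE, n = 2 arrays per time), an 8.13-fold rise with an adjusted p of 0.0191. The 2 control arrays stood 1 unit apart, and both lay well below the 6 h arrays. OsCIPK15, a kinase bound by CBL calcium sensors and known in rice from the response to low oxygen, read 7.0 and 6.54 at 6 h, against 4.33 and 3.76 at 0 h (2.73 ± 0.34, adjusted p = 0.0154). OsCDPK17, a calcium-dependent protein kinase, read 5.45 and 4.85 at 6 h, against 2.53 and 2.47 at 0 h (2.65 ± 0.32, adjusted p = 0.0140). For this kinase the controls were nearly equal and low, and the groups were far apart. OsPP2C39, a protein phosphatase, read 7.81 and 7.56 at 6 h, against 5.45 and 5.0 at 0 h (2.46 ± 0.33, adjusted p = 0.0193).

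Nuclear and housekeeping genes stood beside them. OsNMCP1a and OsNMCP1 encode nuclear matrix constituent proteins, long coiled-coil proteins of the plant nuclear lamina, and both measured members rose. OsNMCP1a read 7.12 and 6.98 at 6 h, against 4.47 and 4.46 at 0 h, a 6.01-fold rise. OsNMCP1 read 5.36 and 5.48 at 6 h, against 3.06 and 2.86 at 0 h, a 5.5-fold rise. Replicates of both genes were close at either time, but passing the threshold itself selects genes with a wide gap beside a small spread. The ribosomal protein gene RPL10A read 5.72 and 5.94 at 6 h, against 2.78 and 3.87 at 0 h (2.51 ± 0.40). The actin gene AC2 read 6.64 and 6.06 at 6 h, against 4.25 and 3.78 at 0 h (2.34 ± 0.34). In both the difference was larger than the gap between the controls.

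The remaining leaders came from redox, auxin and sugar metabolism. GRXS11, a glutaredoxin, read 5.33 and 5.18 at 6 h, against 2.77 and 2.76 at 0 h (2.49 ± 0.29, adjusted p = 0.0136). IAA24, an Aux/IAA repressor of auxin responses, read 5.34 and 4.57 at 6 h, against 2.18 and 2.94 at 0 h (2.39 ± 0.42, adjusted p = 0.0408). Its arrays scattered at both times, and its standard error was the widest of the 12. OsSPS1, a sucrose phosphate synthase, read 5.95 and 5.58 at 6 h, against 3.4 and 3.66 at 0 h (2.24 ± 0.31). OSR8, listed by that name only, read 6.97 and 6.45 at 6 h, against 3.59 and 4.39 at 0 h (2.72 ± 0.38). Of genes known by number, LOC4324184 read 6.95 and 6.45 at 6 h, against 2.60 and 1.85 at 0 h (4.47 ± 0.39), and LOC9266183 read 6.63 and 6.46, against 2.62 and 2.73 (3.87 ± 0.31). Their 0 h signals lay below the medians of those arrays, so no fold is given. The 0 h signals of OsCDPK17 and GRXS11 and the second of PIP5K lay below those medians as well. Both numbered genes kept their calls after quantile normalization, each with a limma adjusted p of 0.0353.

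**Figure D1:**
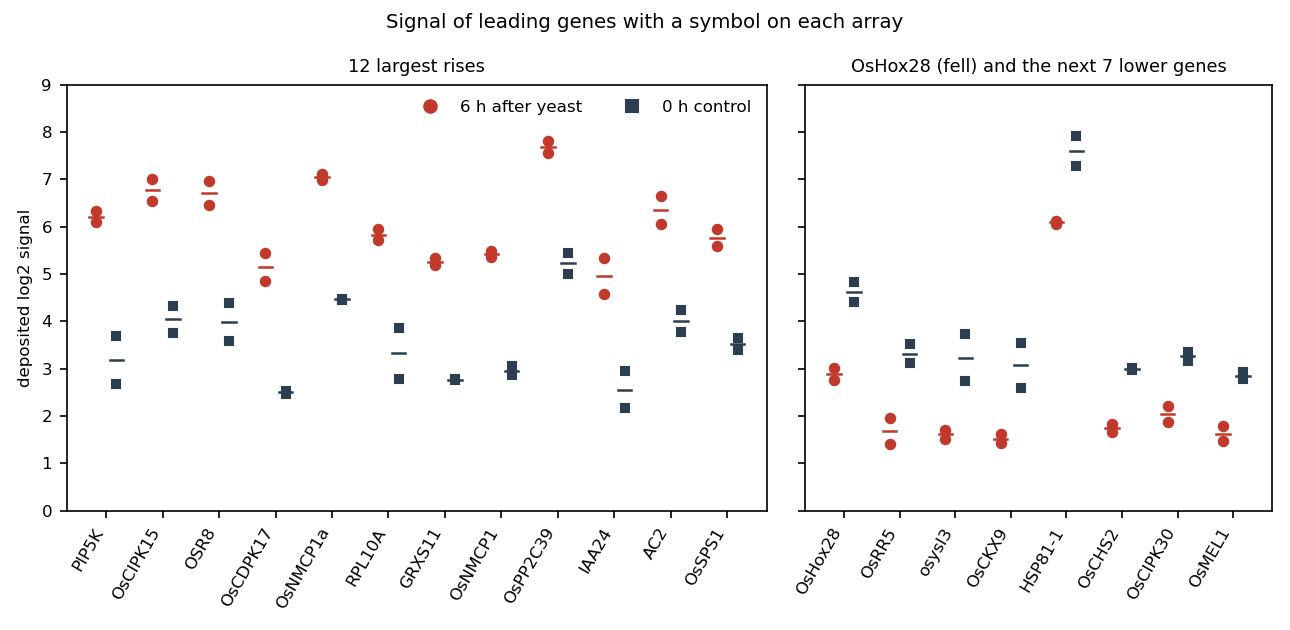
Deposited log2 signal (vertical axis) on each array for the 12 largest rises, and for OsHox28 with the next 7 lower genes by unadjusted p, all with a symbol; circles are the 6 h arrays, squares the 0 h arrays and short lines their means. No circle overlaps a square within a gene, and of the 8 lower genes only OsHox28 passed.

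Falls were few, and the 15 genes that fell had mean signals of 1.30 to 2.90 at 6 h and 2.90 to 4.62 at 0 h. OsHox28, a homeodomain-leucine zipper transcription factor, read 2.77 and 3.02 on the 6 h arrays, against 4.41 and 4.83 at 0 h. It fell by 1.72 on the log2 scale (SE 0.32, adjusted p = 0.0471), and its groups did not overlap. The numbered genes LOC4338522 and LOC4342242 fell by 2.13 and 1.85. LOC4338522 read 2.31 and 1.43 at 6 h, against 3.82 and 4.19 at 0 h. The next lower genes did not pass, and HSP81-1, an HSP90 chaperone, was the 1 bright gene among them, at 6.05 and 6.13 at 6 h, against 7.91 and 7.28 at 0 h (-1.51 ± 0.35, adjusted p = 0.0765). The response regulator OsRR5 read 1.95 and 1.41, against 3.52 and 3.12 (-1.64 ± 0.33, adjusted p = 0.0557). The metal-nicotianamine transporter gene osysl3 and the cytokinin oxidase OsCKX9 differed by -1.62 ± 0.38 and -1.55 ± 0.37, with 6 h signals of 1.72 or less. OsCHS2, named for chalcone synthase, the kinase OsCIPK30 and the Argonaute OsMEL1 differed by -1.23, -1.23 and -1.22. Of the 15 genes that fell, 6 lay below the lower quartile of all probe sets on both 6 h arrays.

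**Figure D2:**
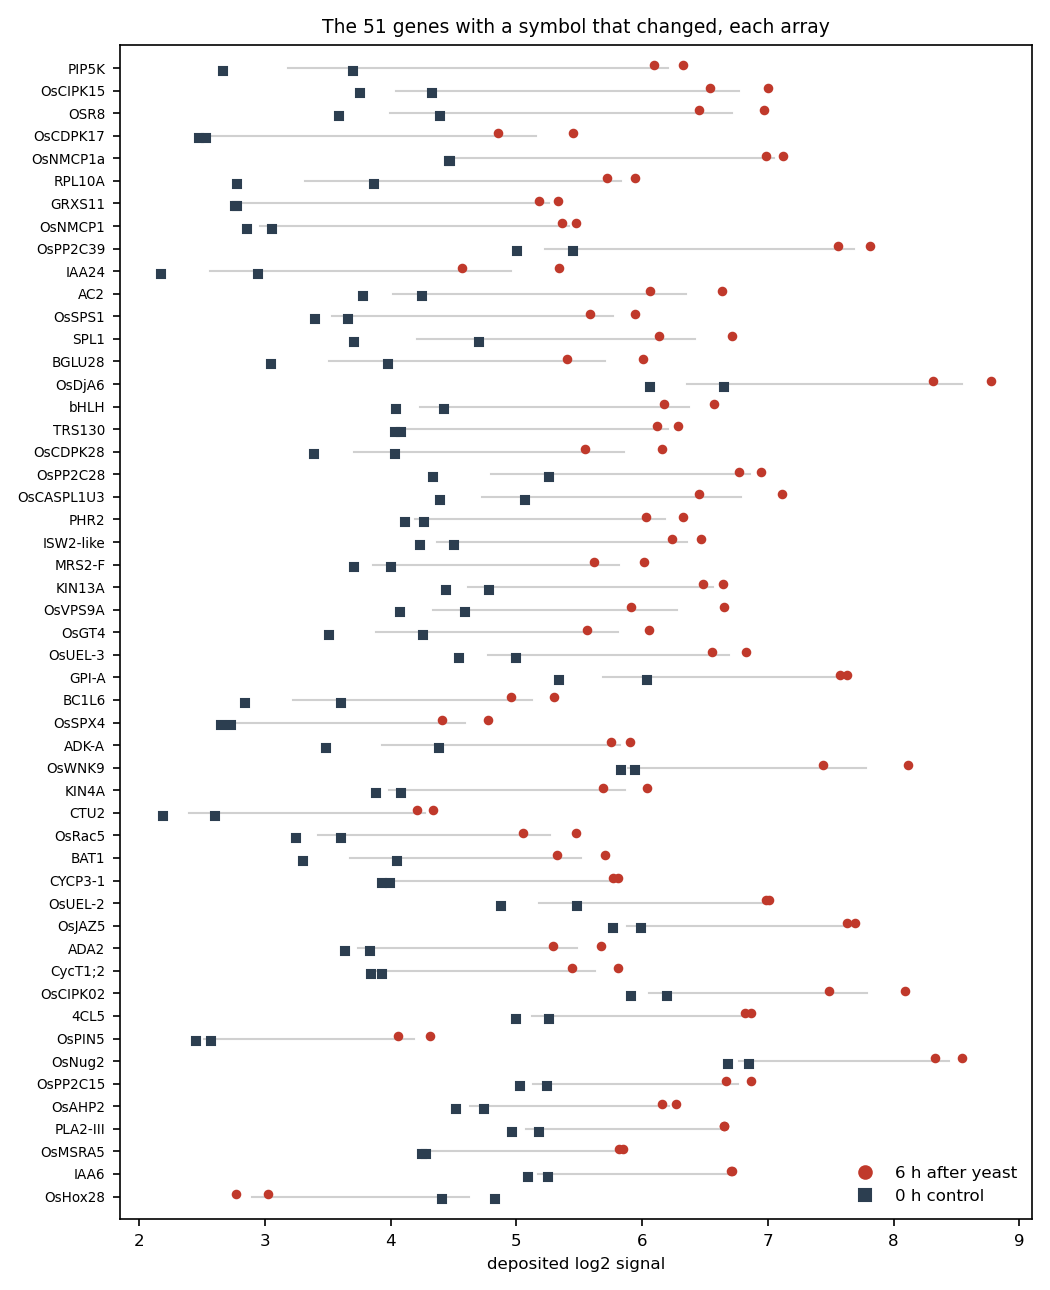
Deposited log2 signal (horizontal axis) on each array for the 51 genes with a symbol that changed, ordered by log2 difference from the top; circles are the 6 h arrays, squares the 0 h arrays, and a grey line joins the means. The 6 h signals of the 50 that rose lie to the right of both 0 h signals, and those of OsHox28 lie to the left.

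The direction of change followed mean signal level. Probe sets were placed in 10 bins of equal size by mean signal over the 6 arrays. A rise or a fall itself moves that mean, so the split by bin partly restates the calls. At 0 h alone the median signal was 3.64 for probe sets that rose and 3.76 for those that fell. Of the 581 that rose, 572 lay in the brightest 4 bins, and of the 60 that fell, 55 lay in the dimmest 6. The median difference over all probe sets was -0.29 in the dimmest bin, 0.63 in bin 9 and 0.44 in the brightest as deposited. After quantile normalization the same medians were -0.07, 0.15 and 0.01. For genes with a symbol, which are brighter (median signal 4.15) than probe sets with no gene (2.53), the median difference was 0.30 as deposited, 0.12 after quantile normalization and 0.08 after cyclic loess. Family medians below are therefore given beside 0.30. Among genes with a symbol, 40.3% had both 6 h arrays above both 0 h arrays and 10.8% had both below, and at an unadjusted p under 0.05 in limma 22.0% were higher and 3.13% lower. These shares are the background of every count at an unadjusted p and of arrays lying apart. With a median above 0, more genes with a symbol read higher than lower. Counts of family members that read higher below stand beside that tendency. How much of any single rise goes with the wider range of the 6 h arrays was not tested.

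**Figure D3:**
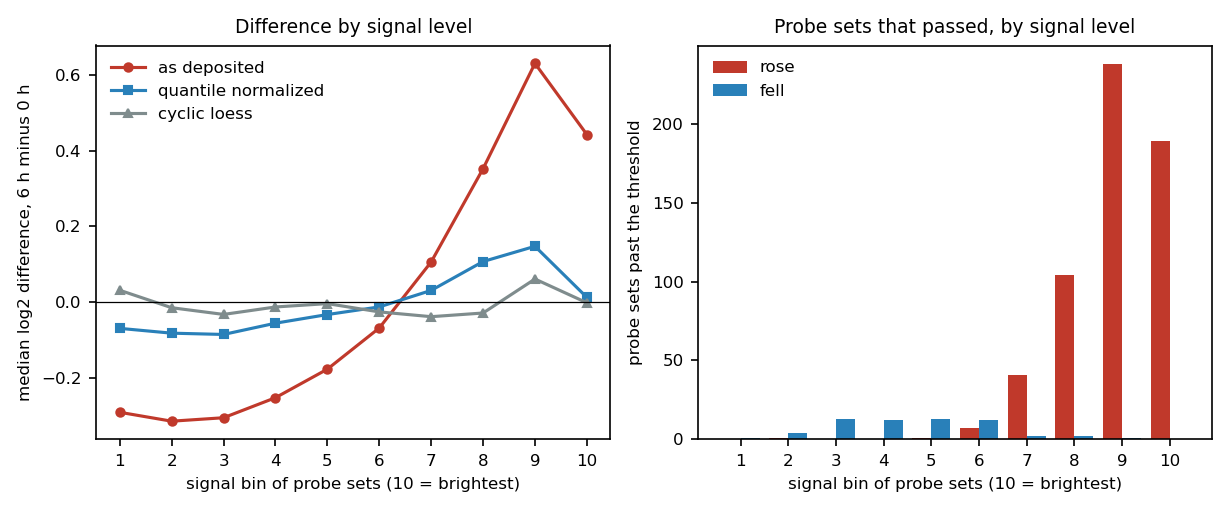
Left, the median log2 difference, 6 h minus 0 h (vertical axis), in each of 10 bins of probe sets by mean signal (horizontal axis), as deposited, after quantile normalization and after cyclic loess; right, the number of probe sets that rose or fell in each bin. The deposited line climbs to 0.63 in bin 9, the other lines stay at 0.15 or less, and rises sit in the bright bins.

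The 1946 genes with a symbol were read across 92 families, which hold 1124 of them. Rises occurred in 23 families and the fall in 1, and 33 of the 51 changed genes belong to a family. Of the 86 families with 5 or more genes, 67 had a median above 0 and 19 below. Relative to all genes with a symbol, 32 families lay above and 31 below under each of the 3 scalings, and the sign of 23 depended on the scaling. The counts that follow stand beside a background of 2.57% of genes with a symbol rising and 0.0514% falling.

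Calcium and phosphorylation families held 8 of the rises. Of 19 calcium-dependent protein kinases, OsCDPK17 and OsCDPK28 (6.16 and 5.55 at 6 h, against 3.39 and 4.03 at 0 h) rose and 17 did not pass. Their median was 0.81, above that of all genes with a symbol by 0.52 as deposited, 0.22 with quantile normalization and 0.27 with cyclic loess. In 11 of the 19 both 6 h arrays lay above both 0 h arrays, and in 2 both lay below. Of 19 CIPK kinases, OsCIPK15 and OsCIPK02 (8.09 and 7.49, against 6.19 and 5.91) rose, and the family ran both ways, with 7 members higher and 3 lower at an unadjusted p under 0.05. The 4 CBL sensors that bind them did not pass, 2 were higher at an unadjusted p under 0.05, and CBL3 differed by 1.63 ± 0.57 and CBL6 by 0.96 ± 0.31. Of 25 calmodulins and calmodulin-like proteins 0 passed the adjusted p and 5 were higher at an unadjusted p under 0.05. Their median stood 0.12 above that of all genes with a symbol as deposited and -0.02 from it after cyclic loess.

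Of 47 PP2C phosphatases, OsPP2C39, OsPP2C28 (6.77 and 6.94 at 6 h, against 4.34 and 5.26 at 0 h) and OsPP2C15 (6.87 and 6.66, against 5.03 and 5.24) rose. The family median was 0.39, close to that of all genes with a symbol, and 13 of the 47 read lower. The 9 SnRK2 kinases, a class that clade A PP2C enzymes hold in check, did not pass, and 3 were higher at an unadjusted p under 0.05. OsSAPK9 read 7.82 and 7.28, against 6.03 and 5.45 (1.81 ± 0.35, adjusted p = 0.0504). OsWNK9, of a family of kinases named for a missing lysine, rose among 8 members, at 8.12 and 7.44, against 5.83 and 5.94. Of 11 MAP kinases and MAP kinase kinases 0 passed the adjusted p in limma and 5 were higher at an unadjusted p under 0.05. MPK10 read 5.92 and 5.78, against 4.38 and 4.43 (1.44 ± 0.30, adjusted p = 0.0587). The family's median of 0.86 stood above that of all genes with a symbol by 0.56 as deposited and by 0.19 after cyclic loess, and both 6 h arrays lay above both 0 h arrays for 9 of its 11 members.

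Small GTPases and their regulators held single rises. OsRac5, a ROP GTPase that switches signalling at the plasma membrane, read 5.47 and 5.05 at 6 h, against 3.25 and 3.6 at 0 h (1.84 ± 0.32), and OsRac7 and OsRac4 differed by 1.19 ± 0.46 and 1.05 ± 0.41 without passing. OsVPS9A, an activator of Rab5 GTPases in endosome traffic, and TRS130, a subunit of a vesicle tethering complex, rose outside the families, at 1.95 ± 0.36 and 2.14 ± 0.31. PLA2-III, a phospholipase A2, rose by 1.58 ± 0.29. Of 7 inositol lipid and inositol phosphate kinases all read higher, and PIP5K was the 1 that passed. The next, IPK1, differed by 0.88 ± 0.36.

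Hormone families each held few rises. Of 24 Aux/IAA repressors, IAA24 and IAA6 (6.71 and 6.71 at 6 h, against 5.25 and 5.09 at 0 h) rose, and the median of 0.30 equalled that of all genes with a symbol. Of 5 PIN auxin carriers, OsPIN5 rose (4.31 and 4.06, against 2.45 and 2.57), while the other 4 read lower, with OsPIN5b at -0.58 ± 0.35. Of 10 auxin response factors 0 passed, 3 were higher unadjusted, and ARF9 differed by 1.16 ± 0.31. Of 14 JAZ and other TIFY proteins, the repressors at the head of jasmonate signalling and their relatives, OsJAZ5 rose (7.69 and 7.63, against 5.99 and 5.77). In 10 of the 14 both 6 h arrays lay above both 0 h arrays, and their median of 0.84 stood above that of all genes with a symbol by 0.55 as deposited, 0.32 after quantile normalization and 0.34 after cyclic loess. Enzymes of jasmonate synthesis did not pass, and of 9 the lipoxygenase CM-LOX2 differed by 1.34 ± 0.31. OsAHP2, a phosphotransfer protein that carries the cytokinin signal to response regulators, rose by 1.59 ± 0.29. Of 14 cytokinin response regulators 0 passed, and at an unadjusted p under 0.05 in limma 4 were higher and 1 lower: OsRR9 read 8.62 and 8.15, against 6.94 and 7.11 (1.36 ± 0.31), and OsRR5 was lower as given above. Families of abscisic acid, ethylene and strigolactone genes held no gene that passed and 1 each that was higher unadjusted, and SMAX1L of the strigolactone list differed by 1.51 ± 0.32.

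Most transcription factor families stayed under the threshold. SPL1, of the family that binds squamosa promoters, rose by 2.22 ± 0.40 among 8 members. The gene listed only as bHLH rose by 2.14 ± 0.31 and is counted outside the 13 numbered bHLH factors, of which 0 passed and 2 were higher unadjusted. Of 45 homeobox factors OsHox28 fell and 44 did not pass, with a median of -0.04, below that of all genes with a symbol by 0.34 as deposited and by 0.21 after cyclic loess. Of 24 MADS box factors 0 passed, 14 read lower, and unadjusted 5 were higher and 2 lower, but their median stood at -0.40 from that of all genes with a symbol as deposited and at 0.01 after cyclic loess. The 6 WRKY, 10 NAC, 14 bZIP, 11 AP2/ERF and DREB, 6 MYB and 31 CCCH zinc finger genes held 0 that passed. At an unadjusted p under 0.05 in limma 9 CCCH, 5 bZIP, 3 MYB and 2 WRKY genes were higher, and 1 WRKY, 1 NAC and 1 AP2/ERF gene lower. OsWRKY76 differed by 1.23 ± 0.31, OsbZIP49 by 1.65 ± 0.40 and OsC3H12 by 1.5 ± 0.30 (limma adjusted p = 0.0548). MYBAS1 read 5.88 and 5.57 at 6 h, against 3.82 and 1.81 at 0 h, a difference of 2.91 ± 0.58 that did not pass (adjusted p = 0.0548), and its controls stood far apart. Chromatin and transcription genes outside the families rose: ISW2-like, a chromatin remodeller, by 1.99 ± 0.31, and ADA2, a coactivator of histone acetylation, by 1.75 ± 0.30.

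Chaperone families had medians below that of all genes with a symbol. Of 14 small heat shock proteins 0 passed the adjusted p, 12 read lower, and 3 were lower at an unadjusted p under 0.05, against 3.13% of genes with a symbol. OsHsp24.1 read 3.42 and 4.0 at 6 h, against 4.76 and 4.51 at 0 h (-0.92 ± 0.33). The median of -0.25 lay below that of all genes with a symbol by 0.54 as deposited, 0.57 after quantile normalization and 0.61 after cyclic loess. Of 9 CLPB, HSP90 and BiP chaperones 7 read lower, with a median of -0.41, and CLPB-C differed the other way by 1.37 ± 0.35. OsDjA6, a J-domain partner of HSP70, rose outside these families, at 8.77 and 8.32, against 6.65 and 6.06 (2.19 ± 0.36). Glutaredoxins split: GRXS11 rose, while the median of the 18 was -0.24 and 12 read lower. OsMSRA5, which repairs oxidised methionine, rose by 1.56 ± 0.28, and the ascorbate peroxidase OsAPx04 differed by 1.55 ± 0.30 with an adjusted p of 0.0519.

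Defence families held no gene that passed. As 2.57% of all genes with a symbol rose, an absence from families this small says little. At an unadjusted p under 0.05 in limma, 2 of 9 chitinases and 1 of 11 phytoalexin genes were higher and 1 chitinase lower. Among all genes with a symbol 22.0% were higher and 3.13% lower. Of 6 germin-like proteins 1 was higher and 1 lower unadjusted. Of 9 chitinases, enzymes that cut the chitin of fungal walls, Cht1 read 4.91 and 5.24 at 6 h, against 4.14 and 3.93 at 0 h (1.04 ± 0.30, adjusted p = 0.119), and Cht11 differed by -0.97 ± 0.32. Of 11 diterpenoid phytoalexin genes 6 read lower, and CYP76M5 differed by 0.75 ± 0.29. Low-oxygen and fermentation genes had a median of -0.58, the lowest of the families with 5 or more genes as deposited. After cyclic loess it was not the lowest relative to all genes with a symbol, since cytokinin oxidases stood at -0.63, small heat shock proteins at -0.61 and CLPB, HSP90 and BiP chaperones at -0.60. Of 11 members 0 passed, and at an unadjusted p under 0.05 in limma 3 were lower and 1 higher, a PDC gene of fermentation at 3.95 and 4.76, against 2.98 and 3.27 (1.24 ± 0.40). The other measured PDC gene, which was brighter, differed by -0.61 ± 0.29, with both 6 h arrays below both 0 h arrays. The rest of the list are alpha-amylase and haemoglobin genes, so its median is not one of fermentation genes alone. Both 6 h arrays lay below both 0 h arrays for 7 of 11, against 10.8% of genes with a symbol. The haemoglobin gene NSHB3 read 3.29 and 2.68, against 4.42 and 4.07 (-1.26 ± 0.34), and AMY1.3, an alpha-amylase, read 2.85 and 3.10, against 5.82 and 3.38. For AMY1.3 the second control array lay close to the 6 h arrays and the first far above them. The median lay below that of all genes with a symbol by 0.88 as deposited, 0.59 with quantile normalization and 0.47 with cyclic loess.

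Nutrient genes that rose were 2 phosphate regulators, an amino acid carrier and a magnesium transporter. PHR2, the transcription factor at the centre of the phosphate starvation response, read 6.33 and 6.03 at 6 h, against 4.26 and 4.12 at 0 h (1.99 ± 0.30). OsSPX4, which binds it when phosphate is ample and keeps it from its targets, read 4.77 and 4.41, against 2.73 and 2.65 (1.90 ± 0.30). The 8 PHR and SPX genes ran both ways, with a median of 0.40. In 4 of them both 6 h arrays lay above both 0 h arrays. In 3, OsSPX1 (-0.44), OsSPX6 (-0.55) and OsSPX5 (-0.63), both lay below. Of 13 phosphate transporters of the Pht1 and PHO1 families 0 passed and 2 were higher unadjusted, with OsPHO1;2 at 0.85 ± 0.29. Of 8 ammonium transporters 0 passed and 1 was higher unadjusted, and OsAMT1;2 read 6.25 and 5.74, against 5.45 and 5.10 (0.72 ± 0.32). The 6 nitrate transport and NLP genes did not pass either, with OsNAR2.1 at 6.23 and 5.74, against 5.13 and 5.70. BAT1, an amino acid carrier, rose by 1.84 ± 0.35 at an adjusted p of 0.0498, and OsproT, a proline carrier, differed by 1.37 ± 0.34. MRS2-F, a magnesium transporter, rose by 1.96 ± 0.31. Of 21 HAK potassium transporters, 28 iron and zinc uptake genes, 14 Nramp, MTP, HMA and COPT metal transporters and 17 aquaporins 0 passed. Unadjusted, 3 HAK, 3 metal transporter and 2 aquaporin genes were higher, and 2 HAK, 2 iron and zinc and 1 aquaporin gene lower. OsNramp3 differed by 1.44 ± 0.29 and OsTIP4;2 by -1.32 ± 0.41.

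Carbon and wall families held scattered rises. OsSPS1 rose among 15 genes of sucrose synthesis and cleavage, and its relatives OsSPS2F and OsSUS6 differed by 2.02 ± 0.40 and 1.8 ± 0.38 (adjusted p = 0.0548 and 0.0626). Of 14 sugar transporters 0 passed and 5 were higher unadjusted, with 7 reading higher and 7 lower. GPI-A, glucose-6-phosphate isomerase of glycolysis, read 7.63 and 7.57 at 6 h, against 5.33 and 6.04 at 0 h, and ADK-A, an adenylate kinase, rose by 1.89 ± 0.36. Of 8 genes of 4-coumarate ligases and relatives, which open the route to lignin and flavonoids, 4CL5 rose (6.82 and 6.86, against 5.26 and 5.0) and all 8 read higher. OsCASPL1U3, a relative of the proteins that lay down the Casparian strip, rose by 2.05 ± 0.37 among 20 members, and BC1L6, a COBRA-like protein of wall assembly, by 1.91 ± 0.35 among 6. BGLU28, a beta-glucosidase, rose by 2.19 ± 0.39 among 22. Of 20 cellulose synthases and relatives 0 passed and 7 were higher unadjusted, while 18 read higher and both 6 h arrays lay above both 0 h arrays for 13. Expansins, which loosen walls, ran the other way: of 38, 0 passed, 4 were lower and 2 higher unadjusted, 22 read lower and the median was -0.21, below that of all genes with a symbol by 0.51 as deposited and by 0.40 after cyclic loess, with OsEXP10 an exception at 1.55 ± 0.40.

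Genes of the cytoskeleton and of cell division followed in the same size range. Of 19 kinesins, KIN13A (6.65 and 6.48 at 6 h, against 4.78 and 4.44 at 0 h) and KIN4A (6.03 and 5.69, against 4.08 and 3.88) rose, and the median was 0.57. Of 20 cyclins, CYCP3-1 (5.77 and 5.80, against 3.93 and 3.99) and CycT1;2 (5.81 and 5.44, against 3.93 and 3.84) rose, while CYCD4-2 differed by -1.14 ± 0.29. T-type cyclins act with kinases in transcription rather than in division. Of 14 cyclin-dependent kinases and inhibitors and 23 replication proteins 0 passed, and 3 and 1 were higher unadjusted. The 76 genes of these 4 families were listed as markers of dividing cells, although not all act in division. Of them 4 rose and 0 fell, and their summed log2 signal was 292.2 and 275.0 on the 6 h arrays, against 260.8 and 256.6 at 0 h. As deposited, their median difference of 0.25 was below the 0.30 of all genes with a symbol. Cyclins had a median of 0.15, cyclin-dependent kinases and inhibitors 0.24 and replication proteins 0.17. The standing of these families depended on the scaling. After cyclic loess kinesins stood 0.29 and replication proteins 0.14 above the median of all genes with a symbol. Cyclins then stood at -0.02 from it and cyclin-dependent kinases and inhibitors at -0.16. The part of dividing cells in the other rises was not tested. Genes of translation that rose were RPL10A among 14 ribosomal proteins, OsNug2, a GTPase of ribosome assembly, at 8.54 and 8.33, against 6.85 and 6.69, and CTU2, which modifies transfer RNAs, at 1.88 ± 0.32. Of 18 proteasome and ubiquitin ligase genes 0 passed and 6 were higher unadjusted in limma. Of 16 Argonaute and Dicer-like genes 0 passed and 4 were higher unadjusted, with OsAGO1b at 5.91 and 6.31, against 2.42 and 4.33 (2.74 ± 0.56, adjusted p = 0.0589). OsUEL-3, OsUEL-2 and OsGT4, listed by name only, rose by 1.92 ± 0.31, 1.82 ± 0.32 and 1.93 ± 0.36.

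**Figure D4:**
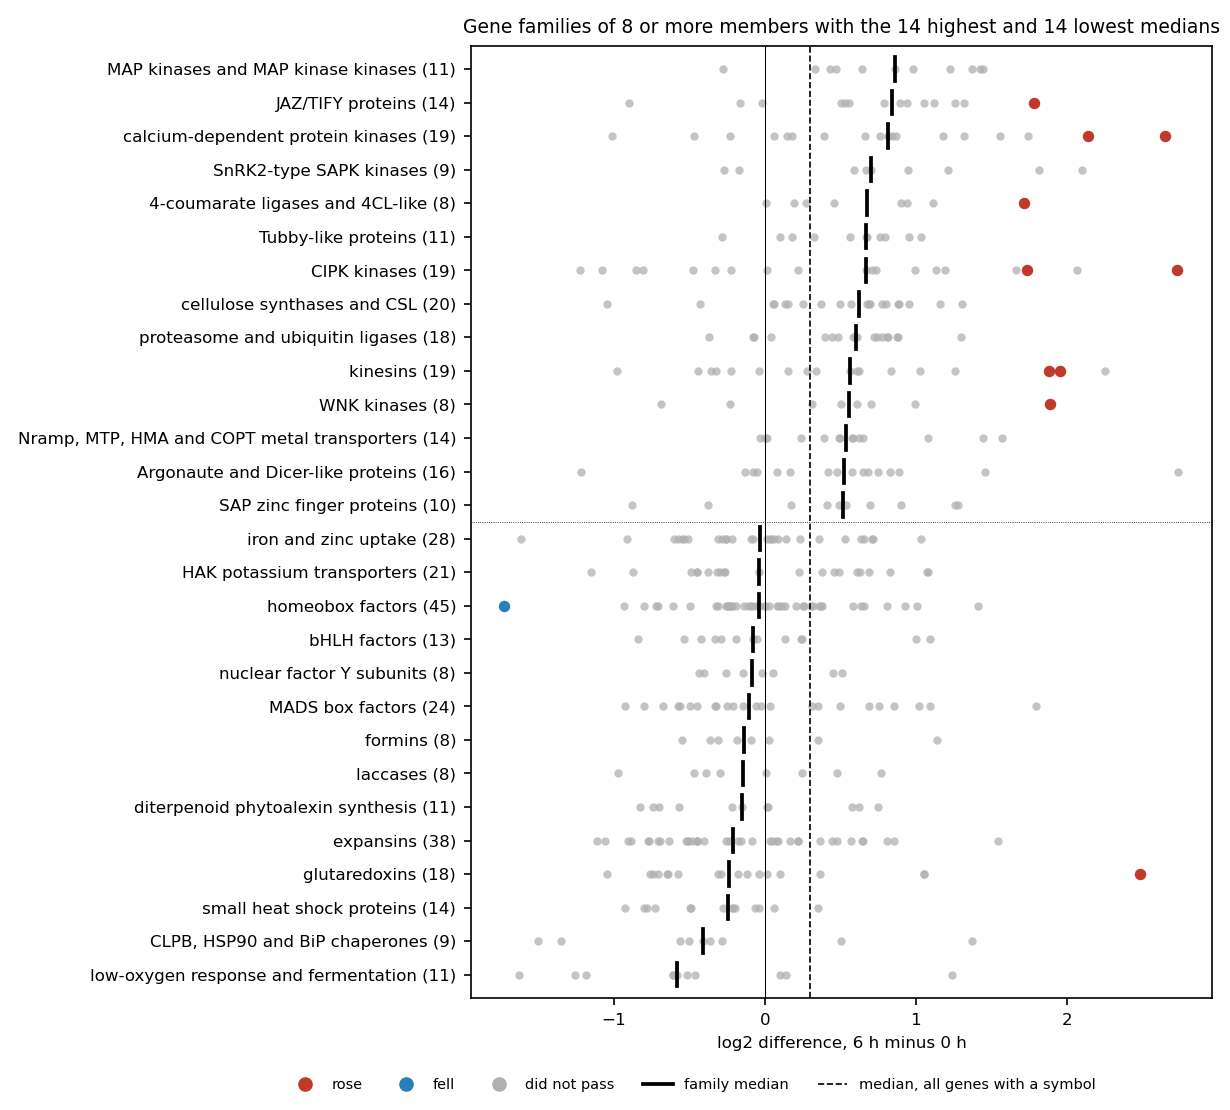
Log2 difference, 6 h minus 0 h (horizontal axis), of each member of the families of 8 or more genes with the 14 highest and the 14 lowest medians; numbers in brackets are members, bars family medians, and the dashed line the median of 0.30 over all genes with a symbol. Red members rose, the blue one fell and grey ones did not pass. Members of most families lie on both sides of 0, and the genes that changed lie far from their family's median.

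The tissue label was checked against markers. The 27 measured genes of nitrate, ammonium and phosphate transport, which include NLP regulators and PHO1 genes, had a median signal of 3.57 and 3.58 on the 6 h arrays. At 0 h it was 3.25 and 3.23. OsPHO1;2, which loads phosphate into the xylem, read 7.83 and 7.77 at 6 h, against 7.12 and 6.79 at 0 h. Of 17 markers of green shoot tissue 0 passed, 8 read higher and 9 lower. Their summed log2 signal was 56.8 and 47.9 at 6 h, against 48.6 and 54.9 at 0 h, so that the groups overlapped. Their median signal was 3.57 and 2.50 at 6 h, against 2.46 and 3.17 at 0 h. On the first 6 h array and the second 0 h array this came close to the median of the 27 transport genes. The levels of these 2 lists therefore do not separate root from shoot tissue. The light-harvesting gene CAB1R read 4.77 and 4.59 at 6 h, against 5.61 and 5.88 at 0 h (-1.06 ± 0.32), so green-tissue genes were not silent on these arrays. The circadian clock gene OsCCA1, with a level that depends on the hour of sampling, read 5.64 and 5.60 at 6 h, against 4.30 and 4.34 at 0 h (1.30 ± 0.28, adjusted p = 0.0664). Hour of day was not recorded in the labels used here, and its part in the differences was not tested.

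The 24 h arrays share their controls with this comparison, so a like difference from 0 h at 24 h is not independent of it. All 50 genes that rose had both 24 h arrays above both 0 h arrays. The interquartile range of signal on the 24 h arrays was 2.44 and 2.35, also wider than at 0 h. Of the 50, which were picked for high 6 h signals, 20 had both 24 h arrays below both 6 h arrays and 4 had both above. GRXS11 read 4.75 and 5.06 at 24 h, and IAA6 6.02 and 5.98, each lower than on both 6 h arrays. OsCDPK17 read 5.76 and 5.55 at 24 h and BC1L6 6.21 and 6.18, each higher than on both 6 h arrays. OsCIPK15, at 6.97 and 6.74, lay between its 6 h arrays, and OsHox28 read 3.53 and 3.15, above both of its 6 h arrays.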

How the data were processed

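Total RNA of roots was hybridised to Affymetrix arrays, and the authors deposited 1 table of log2 signal per probe set. The submitters' processing notes name Affymetrix Expression Console. For its version, the summarisation, the normalization and the log base, nothing is given in the sources used here, and log2 was read from the values' range. Genes were assigned from the platform's probe annotation, with symbols or synonyms from the RefSeq gene table of assembly ASM3414082v1, where 14661 of 14662 genes were found. A gene stands for its probe set with the highest mean over the 6 arrays, and for 607 genes this was 1 of several. The log2 values were used as deposited, without a filter. In limma 3.58.1 (R 4.3.3), lmFit with 1 mean per time was fitted to all 6 arrays, with 3 residual degrees of freedom and 5.08 prior ones, and the contrast 6 h minus 0 h was tested with eBayes. Benjamini-Hochberg adjustment ran across the 41770 probe sets, and the fit was tested on simulated data. Errors are standard errors of the model. Python 3.11.15 made the tables and plots.

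Families were matched by symbol or synonym, with patterns tidied after the symbols were seen. Genes with a symbol that passed could be named. Values on each array were given for the 12 largest rises and, with the next by unadjusted p, 8 lower genes, as well as up to 4 members of each family with the smallest p and 2 numbered genes per direction. Members and lists were chosen with earlier results of these data known. Arrays were not treated as paired by replicate number in the main fit. The deviations of same-numbered arrays correlated across probe sets at 0.05 (6 h with 0 h), 0.03 (24 h with 0 h) and 0.16 (24 h with 6 h). These values show no strong pairing but do not exclude one. Alternatives were quantile normalization, cyclic loess, centring, leaving out dim probe sets, a trend with robust estimation, array weights, a fit to the 4 arrays alone, the replicate block, leaving out each array, genes as units and a fold as well.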

Additional observations from a re-analysis of the deposited data

How the results depend on the processing

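The count of 641 probe sets (581 higher, 60 lower) depended on the scaling of the arrays. It was 81 (78 and 3) after quantile normalization, 119 (113 and 6) after cyclic loess and 1146 (1072 higher) with each array centred on its median. It was 1062 (919 and 143) with an intensity trend and robust estimation, 187 (180 and 7) with array weights, 81 (80 and 1) with the 4 arrays alone, and 372 (355 and 17) with a fold of at least 4 as well. Leaving out the dimmest 33.3% of probe sets gave 939. With the replicate block 384 passed (367 and 17), and 23 of the 50 rises with a symbol kept their calls. With each array left out in turn the count ran from 0 to 2249, the higher ones from 0 to 1487 and the lower ones from 0 to 762. It was 0 without either 6 h array (5916 and 7663 probe sets at an unadjusted p under 0.05), 2249 without the first control array, 1018 without the second and 81 without either 24 h array. Where a 6 h or control array was left out, the lone array of that time was assumed to vary like the others. A lone 24 h array adds nothing to the spread. Leaving out either 24 h array was therefore the same fit as that to the 4 arrays alone, not a separate alternative. All 81 probe sets of the quantile fit and 117 of the 119 of cyclic loess were among the 641, 12.6% and 18.3% of them. Over 14662 genes alone, 620 genes passed (588 and 32), against 322 (307 and 15) adjusted over probe sets. No named gene that passed changed sign under these alternatives. Why the counts moved with scaling was not tested. Without background signals, how far a dim signal lies above background is unknown, which limits the falls most.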

Other observations

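Probe sets with no gene in the annotation used here behaved differently from the rest in direction. Of 26035 such probe sets, 259 rose (0.995%) and 44 fell (0.169%), so that 44 of the 60 falls have no gene name. Both 6 h arrays lay below both 0 h arrays for 28.5% of them and above for 15.4%, while for probe sets with 1 gene the shares were 14.8% and 33.8%. Their median signal over the 4 arrays was 2.53, against 3.48 for probe sets with 1 gene, and the part of signal level in this split was not tested.

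Of 116 long noncoding RNA genes 3 rose and 0 fell, against 301 and 15 of 14287 protein-coding genes. The genes that rose were spread over the chromosomes, from 1.57% of the genes measured on chromosome 10 to 3.13% on chromosome 12. Their median length in the genome was 4144 bases, against 3177 bases for genes that did not pass and 2144 bases for the 15 that fell. Among the brighter genes the medians were 4111 bases for those that rose and 3440 bases for those that did not pass.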
